A study of Mus musculus with 54 samples.

Results

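The comparison set 3T3-L1 cells treated with prieurianin for 24, 36 and 48 h against 2 controls at the same times. 3T3-L1 is a mouse preadipocyte line that can be turned into fat cells in culture, and prieurianin is a limonoid, a plant triterpenoid. The 3 arms were 2 µM prieurianin, 0.5% DMSO (the vehicle) and untreated cells that went through normal differentiation. The titles of the arrays chose the members: 3 prieurianin, 3 DMSO and 3 untreated arrays, 9 of the 54 in the series. Each arm had 1 array per time, so the 3 times stand in for replicates. The labels do not say whether the times came from separate cultures, so every p-value measures only how much the difference between arms varied over the 3 times, which may be technical.

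Preadipocytes are fibroblast-like cells that attach through integrins to a matrix and carry actin stress fibres. As they become fat cells they take those fibres apart, the regulators Pparg and Cebpa come on, and genes for lipid storage and for fat cell hormones follow. Serum response factor (SRF), with its actin-sensing partners, and YAP, with TEAD factors, are regulators that drive many genes of the actin cytoskeleton and its attachments. SRF binds a short element called the CArG box.

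A gene was called when its mean prieurianin level differed from the mean of both controls with a limma adjusted p under 0.05. The call also required prieurianin to lie above both controls, or below both, at each of 24, 36 and 48 h. Levels are log2(intensity + 16), differences are log2 differences, and values after ± are standard errors of the fit with 3 arrays per arm. Of 12792 genes tested, 117 were called (0.915%), 98 higher with prieurianin (0.766%) and 19 lower (0.149%). The median difference of all genes tested was -0.01, and 1728 genes had an unadjusted p under 0.05. A difference of over 2-fold was reached by 69 of the 98 and 14 of the 19. The count depended on the later times: it was 9 without 36 h and 9 without 48 h. Without 1 prieurianin array it was 65 (24 h), 24 (36 h) or 42 (48 h), without the DMSO array at 36 h it was 72, and without the untreated array at 36 h or 48 h it was 44 or 58.

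Both controls contributed to these calls. Among the 98 genes called higher, 70 also passed in the contrast with DMSO of the same fit, 84 with untreated and 56 in each. Of these 98, 13 differed between DMSO and untreated. Among the 19 called lower the same counts were 11, 16, 8 and 2. These contrasts share the error of all arms, so they are not tests against a control by itself. Fitted with DMSO alone as control, 26 genes were called, of which 21 were among the calls above. With untreated alone as control 398 were called, of which 98 were among them. The controls themselves differed at 323 genes (2.53%), 263 higher and 60 lower in DMSO. Centring each array on its median, in place of quantile scaling, moved the median of all genes between DMSO and untreated to -0.32 and turned that split to 346 higher and 1326 lower. Taken time by time (24, 36 and 48 h), 54, 96 and 69 genes lay over 2-fold above both controls, and 31, 136 and 56 lay over 2-fold below both. These counts per time have no replicate check.

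**Figure D1:**
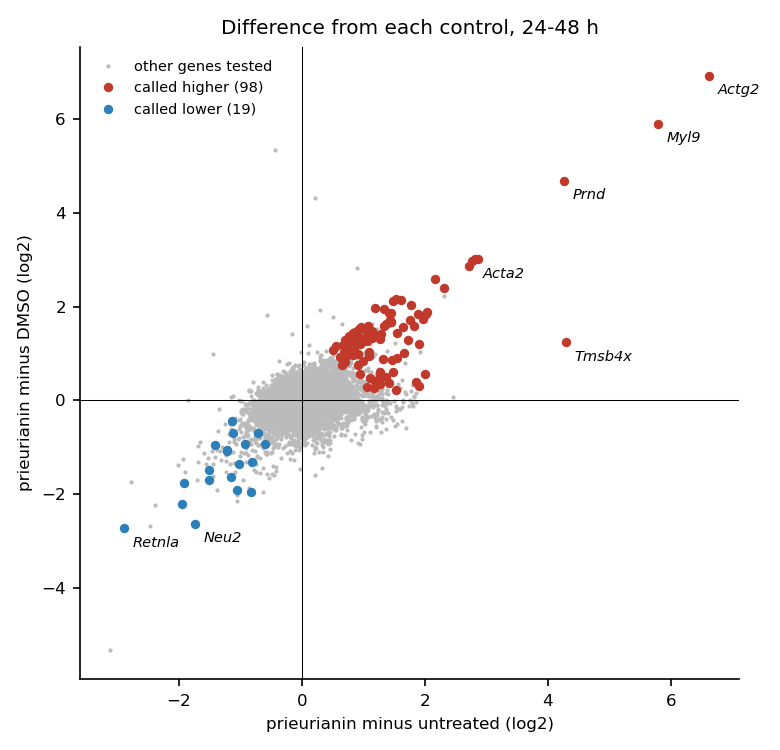
Each point is a gene tested at 24 to 48 h, placed by its log2 difference between prieurianin and untreated cells (horizontal) and between prieurianin and DMSO cells (vertical), means of 3 times. The 98 genes called higher are red and the 19 called lower are blue, and Tmsb4x lies far to the right, lower in untreated than in DMSO cells. Both axes use the same prieurianin arrays, so the slope of the cloud is not a result.

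Prieurianin cells held far more transcript of smooth muscle actins and their contractile partners than either control. Actg2, smooth muscle gamma-actin, and Myl9, a regulatory light chain of smooth muscle and non-muscle myosin, had differences of 6.77 and 5.85 by the probes used. Of 26 contractile genes listed, 24 were on the array and tested. Of these 14 rose and 0 fell, with a median difference of 1.32 beside -0.01 for all genes tested. The list was written with earlier results of these arrays known, so its direction is not independent evidence.

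The promoters of 4 genes that rose are shown because each holds a CArG box before its start, and 2 of them encode contractile proteins. The sequences are from RefSeq (GRCm38.p6), on the gene's strand from 5′ to 3′, with the CArG box in capitals. They are Myl9 (chr2:156775253-156775362, plus strand, box starting 161 bases before the start), Acta1 (chr8:123894789-123894898, minus strand, 73 bases), Vcl (chr14:20929148-20929230, plus strand, 227 bases) and Fhl2 (chr1:43163962-43164042, minus strand, 31 bases).
Myl9: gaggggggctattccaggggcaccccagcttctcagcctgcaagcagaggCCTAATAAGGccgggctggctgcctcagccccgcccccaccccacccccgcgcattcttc
Acta1: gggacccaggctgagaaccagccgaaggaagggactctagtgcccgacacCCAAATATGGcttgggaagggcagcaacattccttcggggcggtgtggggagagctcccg
Vcl: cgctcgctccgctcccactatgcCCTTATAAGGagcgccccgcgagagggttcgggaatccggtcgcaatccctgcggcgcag
Fhl2: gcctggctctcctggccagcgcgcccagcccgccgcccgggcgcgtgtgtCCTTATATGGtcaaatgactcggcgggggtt

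The search covered windows of 300 bases, from 250 before to 50 after each start, on both strands. A CArG box was present in 1.63% of 32851 promoter windows, and 164 of 10278 tested genes with a window (1.6%) had one in at least 1 window. Among the genes called higher it was present for 14 of the 81 with a window (17.3%), and among those called lower for 0 of 15. The 14 genes include Rnf128 and Fermt2, described below. Among the 15 largest rises Prnd, Ccn1, Acta2, Apol10b, Tmsb4x, Aoc2, Gpr176, Mylk, Inhba and Pilra had a window but no CArG box in it. The core motif of TEAD factors, GGAATG on either strand, was present in 14.7% of all windows, for 32.1% of genes called higher and for 26.7% of those called lower. A match is a run of letters in this window and was not shown to be bound. The windows for Actg2 and Glipr1 were not used here.

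Actg2 stood at 12.78, 14.40 and 13.18 with prieurianin at 24, 36 and 48 h, at 6.69, 6.503 and 6.39 with DMSO and at 7.003, 6.74 and 6.74 in untreated cells. The groups were far apart at every time, and the control values were dim. Deposited intensities of its probe were 7499, 20917 and 7935 with prieurianin and 75 to 139 on the 6 control arrays. The difference was 6.77 ± 0.29, a 109-fold rise (limma adjusted p = 3.5e-05), with 6.92 against DMSO and 6.62 against untreated cells. Myl9 stood at 13.41, 14.13 and 13.91 with prieurianin, at 7.66, 8.13 and 7.97 with DMSO and at 8.13, 8.03 and 7.91 in untreated cells. Again no control array came near the prieurianin arrays, and the rise was 57.6-fold (5.85 ± 0.15, limma adjusted p = 2.6e-06).

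The other 2 muscle actins rose as well. Acta2, smooth muscle alpha-actin, stood at 15.999 on all 3 prieurianin arrays, where its probe was saturated, at 12.75, 12.88 and 13.33 with DMSO and at 13.21, 12.92 and 13.44 in untreated cells. It was therefore at least 7.52-fold higher (2.91 ± 0.14, limma adjusted p = 6.6e-05). The other 3 probes of Acta2 gave differences of 4.26, 6.31 and 0.98, all higher with prieurianin. Acta1, skeletal muscle alpha-actin, was dim in the controls, at 5.15, 4.93 and 5.17 with DMSO and 5.38, 4.92 and 5.36 in untreated cells, against 7.89, 7.90 and 8.03 with prieurianin (2.79 ± 0.12, limma adjusted p = 3.5e-05). Its control levels lay under the threshold of 6.07 on the mean level that a gene had to exceed to be tested, which it passed only through the prieurianin arrays. No fold is given, since the difference depends on the floor: it ran from 1.81 to 3.32 over the alternatives and was called in each that gave a value. Muscle actin genes are nearly identical in their coding sequence, and how far their probes hybridise to each other was not tested. Actc1, cardiac alpha-actin, had a difference of -0.03 (limma adjusted p = 0.97).

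**Figure D2:**
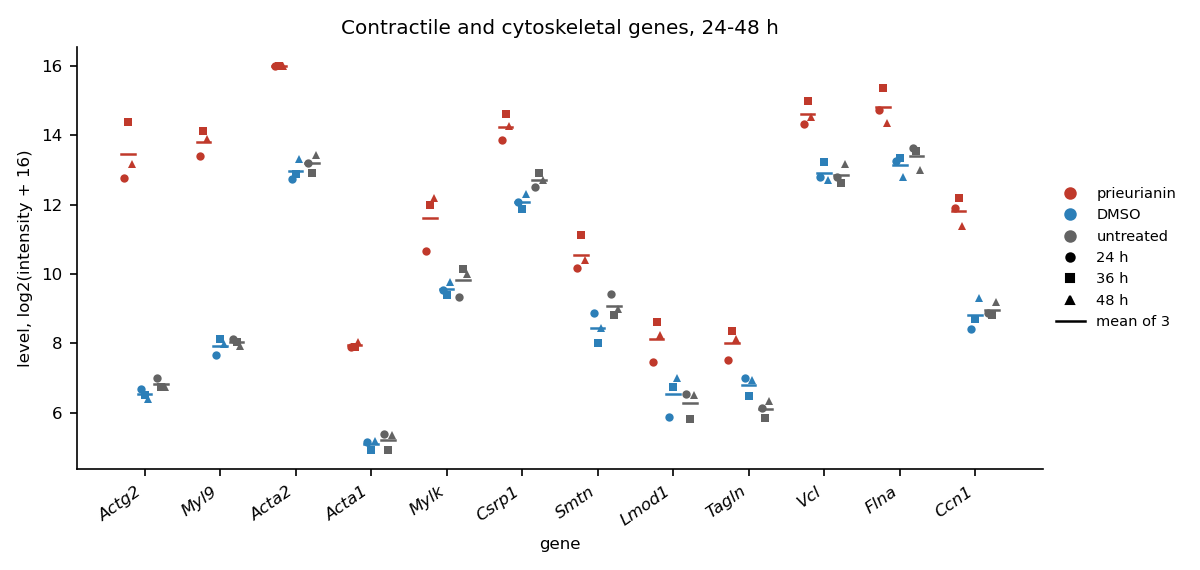
Levels of 12 contractile, cytoskeletal and attachment genes as log2(intensity + 16) on the 9 arrays, with colour for the arm, shape for the time and a bar for the mean of 3. For every gene plotted the 3 prieurianin arrays lie above all 6 control arrays. Acta2 is saturated at 15.999 with prieurianin, so its margin is a lower bound.

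The partners of these actins rose by less. Mylk, the kinase that switches on smooth muscle myosin by phosphorylating its light chain, went from 9.54, 9.41 and 9.78 with DMSO and 9.35, 10.15 and 10.01 in untreated cells to 10.65, 12.01 and 12.19 with prieurianin (1.91 ± 0.23, limma adjusted p = 0.010), and its other 2 probes gave 2.82 and 3.29. Csrp1, a LIM protein that bundles actin, stood at 13.86, 14.61 and 14.26 with prieurianin, 12.08, 11.87 and 12.31 with DMSO and 12.52, 12.91 and 12.71 in untreated cells (1.84 ± 0.17, limma adjusted p = 0.0035). For neither gene did a prieurianin array overlap with a control array. The smooth muscle markers Smtn (smoothelin, 1.80 ± 0.27), Lmod1 (leiomodin, which nucleates actin filaments, 1.70 ± 0.28) and Tagln (transgelin, an actin cross-linker, 1.55 ± 0.21) also rose, with limma adjusted p of 0.024, 0.036 and 0.015. Lmod1 and Tagln passed against untreated cells and not against DMSO (limma adjusted p = 0.10 for each). The other 5 called members, which include tropomyosins, a calponin and the non-muscle myosin Myh9, had differences of 0.94 to 1.60.

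Not all of the contractile list passed. Of its 10 members that were not called, Cald1 (caldesmon) had the largest difference, 0.96 with a limma adjusted p of 0.11, and the other 9 ran from -0.27 to 0.44. Several of the most specific smooth muscle markers are among them: Myh11, smooth muscle myosin heavy chain, at 0.04, Cnn1, calponin 1, at -0.10, and Des, desmin, at -0.27. Myocd, the SRF partner that drives smooth muscle genes, was at -0.26. The 8 smooth muscle and myofibroblast markers thus had 4 called higher, 0 lower and a median of 0.79. Their mean level ran from 9.01 to 9.25 on the prieurianin arrays, 8.03 to 8.35 with DMSO and 7.95 to 8.24 in untreated cells. The count of 14 contractile calls was 4 without 36 h and 4 without 48 h, each time Actg2, Myl9, Acta2 and Acta1. It was 7 without the prieurianin array at 36 h, 9 without that at 48 h, and 9 without the untreated array at 36 h or at 48 h. Fitted against the DMSO arrays alone it was 5, and against the untreated arrays alone 14.

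Genes commonly driven by SRF and YAP formed a second group, with 6 of 26 called higher and 0 lower and a median of 0.40. Ccn1, a matricellular protein that signals through integrins, had the largest rise: 11.91, 12.19 and 11.39 with prieurianin, 8.42, 8.71 and 9.30 with DMSO and 8.89, 8.81 and 9.20 in untreated cells (2.94 ± 0.24, 7.69-fold, limma adjusted p = 0.0021). Its lowest prieurianin array stood well above its highest control array. Vcl, vinculin, which links actin to attachment sites, stood at 14.34, 15.00 and 14.53 with prieurianin and between 12.61 and 13.24 on the 6 control arrays (1.73 ± 0.19, limma adjusted p = 0.0062). Ankrd1, a muscle ankyrin protein, rose by 1.64 ± 0.15 from controls near the floor, Flna, filamin A, by 1.55 ± 0.14, F3, tissue factor, by 1.24 ± 0.13 and Fhl2, a LIM cofactor, by 1.07 ± 0.14, with limma adjusted p of 0.0035, 0.0035, 0.0062 and 0.014. Without 36 h the count of 6 was 0, and without 48 h it was 1, Ccn1. Against the DMSO arrays alone it was 3, and against the untreated arrays alone 10.

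Ccn2, the close relative of Ccn1, was not called although all 3 prieurianin arrays lay above all controls. It stood at 7.70, 9.99 and 7.43 with prieurianin and between 5.98 and 6.21 on the 6 control arrays, so the 36 h array was far above the other 2 (2.27 ± 0.41, limma adjusted p = 0.052). The regulators themselves showed small differences: Yap1 0.23, Wwtr1 0.32, Tead1 0.14, Mrtfa 0.04 and Mrtfb 0.14, none called.

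Among integrins and focal adhesion proteins 3 of 22 were called higher and 0 lower, with a median of 0.26. Tgfb1i1 (Hic-5), an adaptor of focal adhesions, rose by 1.49 ± 0.13 (limma adjusted p = 0.0031), and its second probe gave 1.55. Itga5, the integrin alpha chain of the fibronectin receptor, rose by 1.32 ± 0.20 (limma adjusted p = 0.026) and Fermt2, kindlin-2, which activates integrins, by 0.90 ± 0.14 (limma adjusted p = 0.030). Itgb1, the beta chain that pairs with Itga5, had a difference of 0.58, not called. This count was 0 without 36 h or without 48 h, and 1 without 24 h, without any 1 prieurianin array, without the DMSO array at 36 h, or without the untreated array at 36 h or 48 h. It was also 1 against the DMSO arrays alone, on values as deposited and with time left out of the fit, and 6 with a trended robust prior.

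**Figure D3:**
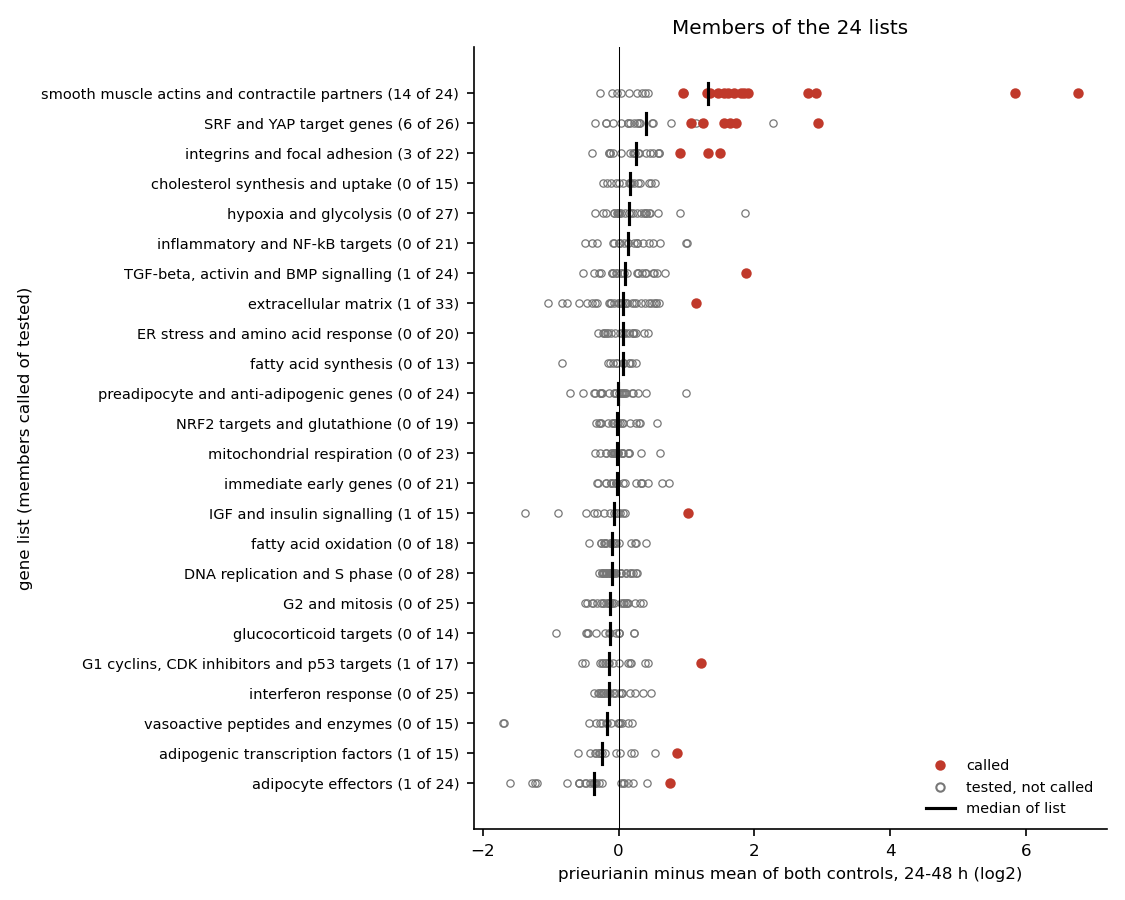
Log2 difference between prieurianin and the mean of both controls at 24 to 48 h for the tested members of 24 gene lists, ordered by median (black bar). Red points are called genes and open points are tested genes that were not called. The contractile list lies apart at the top with 14 of 24 called, and the fat cell effectors lie at the bottom with a median of -0.37 and 1 of 24 called.

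The remaining large rises came from genes outside these groups. Prnd, which encodes the prion-like protein doppel, stood at 9.81, 11.65 and 9.10 with prieurianin, 5.32, 5.97 and 5.21 with DMSO and 6.47, 5.94 and 5.36 in untreated cells (4.47 ± 0.36, limma adjusted p = 0.0021). Its controls had a mean level of 5.71, under the threshold of 6.07, and the difference ran from 3.59 to 4.86 over the alternatives, so no fold is given. Its call was lost without 48 h (limma adjusted p = 0.10). Apol10b, an apolipoprotein L gene, varied little between arrays: 11.07, 11.31 and 11.05 with prieurianin, 8.13, 8.20 and 8.19 with DMSO and 8.43, 8.39 and 8.29 in untreated cells (2.87 ± 0.11, 7.31-fold, limma adjusted p = 3.5e-05). Inhba, the subunit of activin A and the 1 call among 24 genes of TGF-beta, activin and BMP signalling, stood at 9.51, 10.79 and 9.09 against 7.52 to 8.40 in the controls (1.87 ± 0.26, limma adjusted p = 0.016), and was not called without 36 h (0.084) or 48 h (0.20).

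Glipr1 (2.38 ± 0.22), the orphan receptor Gpr176 (1.96 ± 0.18), the ubiquitin ligase Rnf128 (1.86 ± 0.21) and the immune receptor Pilra (1.85 ± 0.25) rose with limma adjusted p of 0.0035, 0.0035, 0.0072 and 0.014. The call of Glipr1 was lost without 48 h (0.13), and those of the other 3 without 36 h (0.054 to 0.13) or 48 h (0.12 to 0.23). Aoc2, an amine oxidase, rose by 2.35 ± 0.14 (limma adjusted p = 0.00032) on the probe used, and a second probe gave -0.04, so its probes disagree. Tmsb4x, thymosin beta 4, which holds actin monomers, stood at 10.77, 10.77 and 9.49 with prieurianin, 9.30, 8.94 and 9.07 with DMSO and 6.78, 5.17 and 6.19 in untreated cells. The untreated arrays were the lowest, and the difference of 2.77 ± 0.33 (limma adjusted p = 0.0084) was not called without 36 h (0.084) or 48 h (0.12). Prieurianin and DMSO differed by 1.24 (limma adjusted p = 0.27), and DMSO and untreated by 3.06 (limma adjusted p = 0.018).

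Single members of other lists were called higher. They were Col8a1, a short-chain collagen (1.13 ± 0.19, 1 of 33 matrix genes), Btg2, an antiproliferative p53 target (1.22 ± 0.16, 1 of 17 genes of G1 cyclins, CDK inhibitors and p53 targets), and Grb14, an inhibitor of the insulin receptor (1.02 ± 0.14, 1 of 15 genes of IGF and insulin signalling). Their limma adjusted p were 0.041, 0.013 and 0.013. In each of these lists 0 members were called lower, and the medians were 0.07, -0.14 and -0.08. All 3 calls were lost without 36 h or without 48 h.

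The fat cell programme had begun in both controls by 48 h. The mean level of 24 adipocyte effectors was 9.35, 9.92 and 10.74 with DMSO in order of time, 9.44, 9.99 and 10.66 in untreated cells, and 9.42, 9.20 and 10.25 with prieurianin. At 24 h the prieurianin mean lay between the controls and at the later times below both, and the groups overlap when times are not matched. Of the 24 genes 17 had a negative difference, 0 were called lower by limma and 1 was called higher, with a median of -0.37. At an unadjusted p under 0.05, 12 of the 24 were lower and 1 was higher, beside 1728 of 12792 genes tested in either direction.

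Adipoq, the fat cell hormone adiponectin, stood at 5.68, 5.86 and 9.36 with prieurianin, 5.68, 7.47 and 10.40 with DMSO and 6.53, 8.71 and 10.65 in untreated cells. Cidec, a lipid droplet protein, stood at 7.06, 5.86 and 9.76 with prieurianin, 6.76, 8.94 and 10.75 with DMSO and 8.13, 9.43 and 10.90 in untreated cells. For both genes the prieurianin level at 36 h was well below both controls, and the level at 48 h was above both controls' 36 h levels and below their 48 h levels. The differences over 3 times, -1.27 ± 0.31 and -1.59 ± 0.48, did not pass (limma adjusted p = 0.13 and 0.21). Agt, angiotensinogen, which fat cells secrete, followed the same order, at 9.03, 8.34 and 12.03 against 9.95, 11.66 and 12.91 with DMSO and 9.92, 11.52 and 13.09 in untreated cells, and did not pass (-1.71 ± 0.40, limma adjusted p = 0.12).

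Other fat cell genes lay closer to the controls. Pparg, the master regulator of fat cell formation, stood at 11.08, 10.91 and 11.60 with prieurianin, 10.85, 11.40 and 11.99 with DMSO and 11.17, 11.69 and 12.13 in untreated cells (-0.34 ± 0.15, limma adjusted p = 0.37). Its partners Cebpa and Cebpb had differences of -0.29 ± 0.17 and -0.28 ± 0.11, and lipoprotein lipase, Lpl, -0.38 ± 0.19, none called. A second probe of Lpl gave 0.17, so its probes disagree in sign. Cd36, a fatty acid carrier (0.07 ± 0.22), Scd1, stearoyl-CoA desaturase (-0.13 ± 0.16), and Fasn, fatty acid synthase (-0.04 ± 0.14), were close to 0. Their sign changed under other settings, and a p that misses the threshold does not show that their levels were equal.

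Fabp4, the fatty acid binding protein of fat cells, depended on the control. It stood at 10.02, 10.47 and 12.45 with prieurianin, 10.72, 11.71 and 12.53 with DMSO and 9.29, 9.55 and 10.76 in untreated cells. It was below DMSO at all 3 times (-0.68) and above untreated at all 3 (1.11), while DMSO exceeded untreated by 1.79 (limma adjusted p = 0.018). Klf15, a pro-adipogenic factor, was the 1 call among 15 adipogenic transcription factors and rose (0.86 ± 0.15, limma adjusted p = 0.046). The list's median was -0.24 with 10 of 15 negative. Cavin2, a caveolar coat protein, was the 1 call among the effectors (0.75 ± 0.12, limma adjusted p = 0.026). The calls of Klf15 and Cavin2 were lost without 24 h, 36 h or 48 h.

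**Figure D4:**
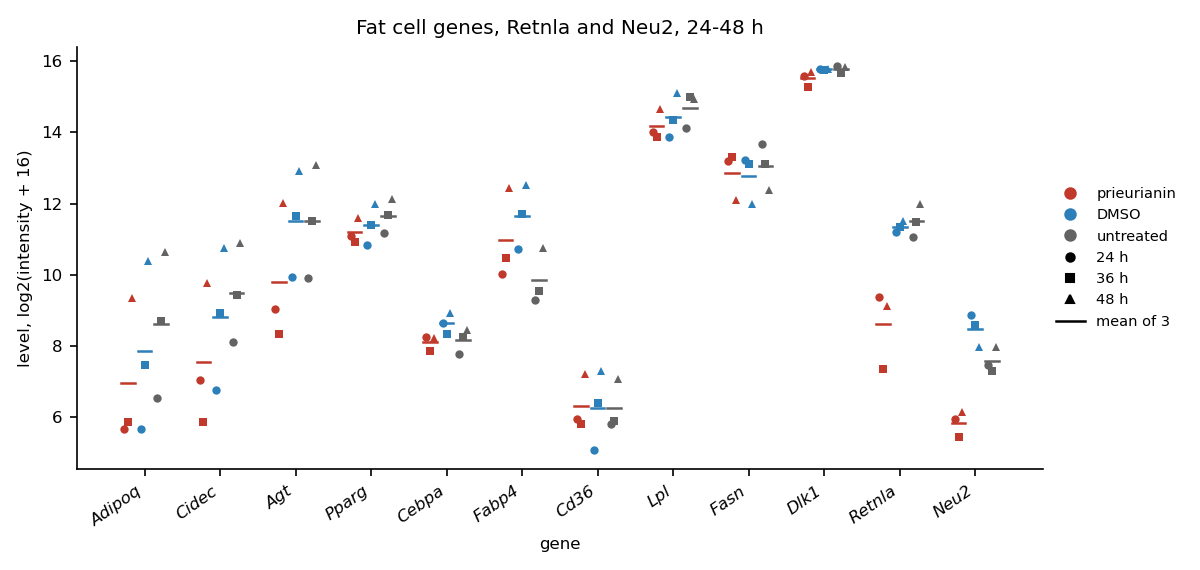
Levels of 10 fat cell and preadipocyte genes and of Retnla and Neu2 as log2(intensity + 16) on the 9 arrays, with colour for the arm, shape for the time and a bar for the mean of 3. Adipoq, Cidec and Agt rise from 24 to 36 to 48 h in both controls, while the prieurianin arrays at 36 h (squares) lie at 5.86, 5.86 and 8.34, for Cidec and Agt below their 24 h arrays. Retnla and Neu2 are lower on all 3 prieurianin arrays than on any control array.

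No preadipocyte or anti-adipogenic gene was called by limma (0 of 24, median -0.02), and 2 were higher and 3 lower at an unadjusted p under 0.05. Over all genes tested 1728 of 12792 had such a p in either direction. Id2, an inhibitor of basic helix-loop-helix factors, had the largest difference of the list. It stood at 10.69, 10.71 and 9.75 with prieurianin, 10.45, 8.89 and 8.31 with DMSO and 10.64, 9.49 and 8.57 in untreated cells, above both controls at each time (0.99 ± 0.24, limma adjusted p = 0.13). Pi16, a peptidase inhibitor, lay below both controls at each time (-0.72 ± 0.17, limma adjusted p = 0.11). With the error shared over 36 arrays both passed (limma adjusted p = 0.049 for Id2 and 0.013 for Pi16). Dlk1, a preadipocyte inhibitor of fat cell formation, stood near the top of the scale on all 9 arrays (15.28 to 15.86, difference -0.26 ± 0.12). Pdgfra, the receptor that marks fibroblasts and fat precursors, was at 12.99 to 13.66 with prieurianin and 13.11 to 14.20 in the controls (-0.53 ± 0.17, limma adjusted p = 0.23). Markers of the labelled cell type were bright: the mean level of 10 fibroblast and preadipocyte markers was 13.56 to 14.14 on the 9 arrays, with 0 called and 3 lower at an unadjusted p under 0.05.

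Retnla was the largest fall among called genes. It encodes a secreted resistin-like protein found in fat tissue, and stood at 9.38, 7.37 and 9.13 with prieurianin, 11.21, 11.35 and 11.51 with DMSO and 11.07, 11.48 and 11.99 in untreated cells. The lowest prieurianin array was that at 36 h, and no prieurianin array reached a control (-2.81 ± 0.35, 6.998-fold lower, limma adjusted p = 0.011). Neu2, the cytosolic sialidase, was at 5.95, 5.46 and 6.14 against 7.97 to 8.89 with DMSO and 7.29 to 7.98 in untreated cells (-2.18 ± 0.24, limma adjusted p = 0.0062), with prieurianin near the floor. Both calls were lost without 36 h (limma adjusted p = 0.11 and 0.19), and that of Retnla also without 48 h (0.24).

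Vgll4, a cofactor that competes with YAP for TEAD factors, stood at 8.99, 8.73 and 9.26 with prieurianin, 9.93, 9.71 and 10.19 with DMSO and 10.26, 10.56 and 10.42 in untreated cells (-1.18 ± 0.14, limma adjusted p = 0.010). Aldh3a1, an aldehyde dehydrogenase, fell by 1.14 (± 0.19, limma adjusted p = 0.037). Scgb1c1, a secretoglobin, stood at 7.22, 7.01 and 8.97 with prieurianin, below both controls at each time, and fell by 1.504 (± 0.20, limma adjusted p = 0.013). The calls of these 3 genes were lost without 36 h or without 48 h, and that of Vgll4 also without 24 h.

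The other named falls were dim, with mean control levels of 6.47 to 8.44. They were 3 odorant receptors (Olfr1342 -2.08, Olfr631 -1.39 and Olfr459 -1.19), the ion exchanger Slc24a4 (-1.84), Sh2d4b (-1.61), Btbd16 (-1.49), Plppr1 (-1.40), the protease inhibitor Spink5 (-1.14), Kalrn (-1.07), and Syt12 (-0.93). Other probes of Slc24a4, Plppr1 and Kalrn gave 0.18, 0.56 and 1.36, so these 3 genes have probes that disagree in sign. Each of these 10 calls was lost without 36 h and without 48 h.

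Apart from the 4 smooth muscle and myofibroblast markers given above, no marker on the lists of other cell types was called. Limma called 0 markers of skeletal muscle (7 tested), macrophages (6), endothelium (4) and epithelium (5). It also called 0 of cartilage and bone (6), brown fat cells (3) and fat cells (6). At an unadjusted p under 0.05, 3 were higher and 7 lower among these 37, beside 1728 of 12792 genes tested. The largest differences in these lists were Tnnt3 0.67, Csf1r 0.54, Eng 0.35, Krt8 0.33, Spp1 -0.58, Dio2 -0.58 and Cidec -1.59. A second probe of Csf1r gave -0.395, so its probes disagree in sign. The mean level of the macrophage markers ran from 7.83 to 7.98 with prieurianin, 7.92 to 8.36 with DMSO and 7.96 to 8.22 in untreated cells, and that of the skeletal muscle markers from 8.18 to 8.35, 7.99 to 8.38 and 8.02 to 8.30.

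A total of 15 lists had 0 called members in either direction by limma. Of their 308 tested members, summed over the lists, 31 were higher and 22 lower at an unadjusted p under 0.05. Over all genes tested the count was 1728 of 12792. The largest differences within the stress and signalling lists were Ptgs2 (1.00 ± 0.19, limma adjusted p = 0.064) and Il6 (0.99 ± 0.20, 0.072) among inflammatory and NF-kB targets, Slc2a1 (0.91 ± 0.17, 0.058) among hypoxia and glycolysis genes, Ier3 (0.74 ± 0.25, 0.27) among immediate early genes, and Nqo1 (0.57 ± 0.14, 0.13) among NRF2 targets. Adm, a hypoxia-induced vasodilator peptide, had a larger difference (1.87 ± 0.84, limma adjusted p = 0.38), which rests on the DMSO array at 48 h: that array read 6.34, and the other 8 read 10.7 to 12.7. Edn2, a vasoconstrictor, was at -1.69 ± 0.39 and Hsd11b1, which activates glucocorticoids, at -0.92 ± 0.21 (limma adjusted p = 0.11 for each). Among metabolic genes Pcx, pyruvate carboxylase, was at -0.83 ± 0.23, Sc5d, a sterol desaturase, at 0.53 ± 0.13, Acadm, an acyl-CoA dehydrogenase, at -0.44 ± 0.19 and Sdha, a respiratory subunit, at 0.61 ± 0.15, with limma adjusted p of 0.17, 0.13, 0.36 and 0.14. With the error shared over 36 arrays Edn2, Hsd11b1 and Sc5d passed (limma adjusted p = 0.0092, 0.011 and 0.044). The other genes named in this paragraph did not. Without 192 h in that fit Ptgs2, Il6, Nqo1 and Pcx passed as well (limma adjusted p = 0.022, 0.037, 0.015 and 0.021), while Slc2a1, Ier3, Adm, Acadm and Sdha did not.

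The differences at 24 to 48 h were then set beside those of 2 other windows, 5 to 15 h and 96 to 288 h, in a fit over 36 arrays with a separate arm effect in each window. The arrays of the other windows do not enter the fit of 9, but neighbouring times of a course are not independent. At 5 to 15 h the fit called 997 genes higher (7.79%) and 1119 lower (8.75%), and at 96 to 288 h 1171 higher (9.15%) and 1257 lower (9.83%). Of the 98 genes called higher at 24 to 48 h, 96 were on the same side at 5 to 15 h, where 85 passed, and 96 at 96 to 288 h, where 86 passed. Over all genes tested 47.6% and 51.5% lay on the higher side in these windows. The median difference of the 98 genes was 1.41, 1.21 and 1.21 in the 3 windows in order of time.

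Of the 19 genes called lower, 17 were on the same side at 5 to 15 h and 1 passed, and 15 were on the same side at 96 to 288 h and 4 passed. Over all genes 52.4% and 48.5% lay on the lower side. Their median difference was -0.19, -1.19 and -0.37 in the 3 windows. The genes of both directions were chosen on the window of 24 to 48 h, which favours a large median there, so the medians are not compared between windows. The change between windows was tested gene by gene only.

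**Figure D5:**
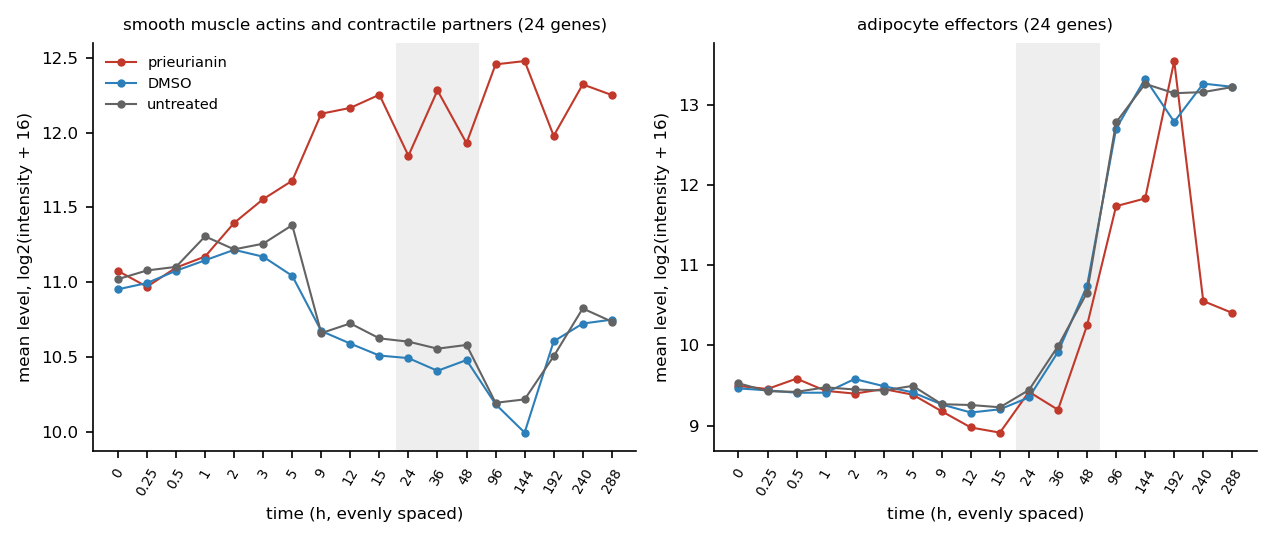
Mean level of 24 contractile genes (left) and of 24 adipocyte effectors (right) as log2(intensity + 16) on 1 array per arm and time, with times evenly spaced and the 24 to 48 h window shaded. The prieurianin and control courses of the contractile genes are apart from 9 h on, at 11.85 to 12.28 against 10.41 to 10.60 in the shaded window. The effectors begin to rise in the shaded window, and prieurianin at 192 h lies far above the other late points of its arm.

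For Actg2 and Myl9 the difference passed in all 3 windows. In order of time Actg2 was higher by 4.84 ± 0.52, 6.77 and 7.42 ± 0.47, and Myl9 by 3.84 ± 0.47, 5.85 and 6.29 ± 0.42. The contractile list had 16 of 24 higher in the earlier window, 19 of 24 in the later one and 0 lower in either, beside 7.79% and 9.15% of all genes higher. A test of the change from 5 to 15 h to 24 to 48 h called 13 genes (0.102%), 3 upward and 10 downward. F3 was the 1 of these also called at 24 to 48 h: its difference was 3.04 ± 0.22 at 5 to 15 h and 1.24 at 24 to 48 h, a change of -1.80 ± 0.34 (limma adjusted p = 0.039).

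From 24 to 48 h to 96 to 288 h the test called 3 genes (0.0235%). Tagln, the actin cross-linker, gained 1.77 ± 0.30 to reach 3.32 (limma adjusted p = 0.029), and Rnf128 lost its difference (-2.05 ± 0.32, from 1.86 to -0.19, limma adjusted p = 0.014). The third, Sgk1, a kinase induced by serum and glucocorticoids, was named after its values were seen: it was at -0.12 at 24 to 48 h and 1.34 at 96 to 288 h (change 1.46 ± 0.20, limma adjusted p = 0.0052).

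One late array, prieurianin at 192 h, was unlike its neighbours: its mean over adipocyte effectors was 13.55, against 10.40 to 11.83 on the other late prieurianin arrays. Without 192 h the 2 window tests called 74 and 569 genes. All 24 adipocyte effectors had a negative difference at 96 to 288 h, with 17 called lower, beside 9.83% of all genes. Without 192 h 23 were negative and 21 called lower, beside 15% of all genes. Without 192 h the change from 24 to 48 h to 96 to 288 h was called downward for 15 of the 24, and with it for 0. Over all genes it was called downward for 368 of 12792 without 192 h. The 192 h array was singled out by the mean of these same effectors, so their counts without it are not independent evidence. Adipoq was at -0.01 ± 0.55, -1.27 and -2.72 ± 0.49 in the 3 windows, the last at -3.39 ± 0.47 without 192 h.

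Genes of DNA replication passed in the window before this one. Of 28 genes of DNA replication and S phase, 24 were lower with prieurianin at 5 to 15 h, with a median of -0.79, beside 8.75% of all genes. At 24 to 48 h 0 were called, with a median of -0.10, beside 0.915% of all genes. The calls at 24 to 48 h are from the fit of 9 arrays and also required the same side of both controls. The counts of the 2 windows are therefore not compared. The mean level of the list at 15 h was 10.96 with prieurianin, 12.27 with DMSO and 12.23 in untreated cells, and at 24 h it was 11.67, 11.68 and 11.74. At 24 h the prieurianin array lay next to both controls. Genes of G2 and mitosis had 3 of 25 lower at 5 to 15 h, beside 8.75% of all genes, and 0 called at 24 to 48 h. At 96 to 288 h 15 of 25 were higher, beside 9.15% of all genes. The medians were -0.48, -0.12 and 0.79 in order of time. Without 192 h 8 of 25 were higher in the late window, with a median of 0.59, beside 13.9% of all genes. Hypoxia and glycolysis genes had 17 of 27 higher at 5 to 15 h (median 0.78), beside 7.79% of all genes. At 24 to 48 h 0 were called higher (median 0.16), beside 0.766% of all genes. The test of the change between the windows called 0 members of either list, so the change itself was not shown. Without 192 h it called 2 hypoxia genes, both downward, and 0 replication genes.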

How the data were processed

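Total RNA was amplified, labelled with Cy5 and hybridised to single-colour mouse oligonucleotide arrays, per the labels' protocols. The deposited numbers were taken as intensities on a linear scale from their range, since no label gives the unit; background subtraction and scaling by the authors are not given in the sources used here. On the 9 arrays the median intensity ran from 95 to 192, 102 to 141 probes lay within 50 units of the array's maximum and were treated as saturated, and pairs of arrays correlated at 0.959 to 0.989 over tested genes. The number of arrays limits the precision.

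All 54 arrays were quantile scaled, floored at 0 and taken as log2(value + 16), so that differences of dim genes come out too small. In the platform annotation 21020 of 29922 probes have 1 symbol, 0 several and 8902 none. Symbols were updated through RefSeq (GRCm38.p6). Each of 16637 genes was represented by its probe with the highest mean over all arrays, and 12792 with a mean above 6.07 (the lower quartile) were tested. Cebpd was not analysed here.

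Arms were compared with limma 3.58.1 in R 4.3.3, with time as a block (4 residual degrees of freedom), and p-values were adjusted by Benjamini-Hochberg over all genes tested. Arrays were matched by the time in their titles, which stands in for a replicate number. The window fit used 36 arrays with time as a block (18 residual degrees of freedom).

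Named genes were the 15 largest rises and falls among called genes (predicted genes left out), up to 6 called members of each list or the 2 largest differences where none was called, a set followed whatever its result, and genes called in the window tests and at 24 to 48 h. The comparison, the 24 gene lists, the 9 marker lists and the alternatives were chosen with earlier results of these data known, so no list was tested. The fits were tested on simulated data. Alternatives covered scaling, pseudocount, filter, probe choice, block, each control alone and each array left out.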

Additional observations from a re-analysis of the deposited data

Results flagged for a closer look

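The mean level of the contractile list stood apart on the untreated array at 5 h, at 11.382, while the other untreated arrays of 5 to 15 h ran from 10.625 to 10.725. Untreated cells stood at 11.307, 11.22 and 11.258 at 1, 2 and 3 h. DMSO cells stood at 11.043 at 5 h and at 10.51 to 10.674 from 9 to 15 h. On the untreated array at 5 h the mean of the adipocyte effectors was 9.4953, and the other untreated arrays of 5 to 15 h ran from 9.228 to 9.2663. From 0 to 3 h the untreated effector mean ran from 9.4206 to 9.5276. Among the untreated arrays of 96 to 288 h, that at 96 h had an effector mean of 12.782 while the others ran from 13.146 to 13.263. The untreated effector mean was 10.659 at 48 h. In a total of 18 groups of arrays tested for a sample far from the rest, chance gives about 1 in 20. The arrays of a group differ in time, so this test cannot tell an unusual array from a change over time.

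For 3 genes called at 24 to 48 h the difference between prieurianin and both controls changed between windows by a limma test of the change. F3 had a change of -1.802 from 5 to 15 h (adjusted p = 0.03874), Rnf128 of -2.054 to 96 to 288 h (adjusted p = 0.01351) and Tagln of 1.774 to 96 to 288 h (adjusted p = 0.02876). All 3 changes passed without 192 h as well, but not under every other setting. With median centring, without 36 h or without 48 h the change from 5 to 15 h was called for 0 genes, so that of F3 was lost. Without 24 h the change to 96 to 288 h was called for 0 genes, so those of Rnf128 and Tagln were lost. That of Tagln was also lost on values as deposited (0 called upward), and that of Rnf128 without 48 h (0 called downward).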

How the results depend on the processing

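Of the 47 named genes that were called, 0 changed sign under those of the 26 alternatives that gave a value. In each of these, 6 kept their call (Actg2, Myl9, Acta2, Apol10b, Acta1 and Aoc2). For Aoc2 this does not settle the disagreement of its probes, since only the mean over probes used its second probe (-0.04). Its difference was as low as 1.15 over the alternatives. The filter at the median gave a value for 31 of the 47 and the mean over probes for 46. Kalrn, whose probes disagree in sign, had a value in 24 alternatives. The count of 117 calls was 233 with median centring, 58 on values as deposited, 74 with no replicate block (time left out, so arrays were not paired by time), 282 with a trended robust prior, 26 with DMSO alone as control, 398 with untreated alone, 179 with an error shared over 36 arrays and 64 when both contrasts had to pass. Leaving out a time gave 9 to 85, a prieurianin array 24 to 65 (42 without 48 h), a DMSO array 72 to 113 and an untreated array 44 to 168 (58 without 48 h). Prieurianin against DMSO (91 calls) gave 300 with median centring, 30 as deposited, 48 with no replicate block and 8 to 52 without a time. Prieurianin against untreated (376 calls) gave 224 as deposited, 227 with no block and 7 to 245 without a time; median centring split its calls into 308 higher and 142 lower in place of 306 and 70. DMSO against untreated (323 calls) gave 1672 with median centring, 508 with a pseudocount of 64, 214 with no filter, 167 with no block and 0 to 184 without a time, and as deposited 224 higher and 7 lower. The change from 5 to 15 h (13 calls) gave 0 with median centring, 1 as deposited, 29 with a pseudocount of 64, 4 with no filter, 74 without 192 h and 0 to 1 without a time of the window. The change to 96 to 288 h (3 calls) gave 1 as deposited, 7 with a pseudocount of 64, 569 without 192 h and 0 to 3 without a time. Median centring moved the median of all genes to 0.24 against DMSO and -0.06 against untreated.

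Genes near 0 changed sign. Scd1 was at 0.033 with median centring and 0.19 with DMSO alone. Fasn was at 0.12 with median centring, 0.092 with DMSO alone, 0.062 without 24 h, 0.062 without the prieurianin array at 24 h and 0.014 without the untreated array at 24 h. Cd36 was at -0.046 as deposited, -0.15 without 24 h, -0.15 without the prieurianin and -0.12 without the DMSO array at 24 h. Fabp4 was at -0.68 with DMSO alone, -0.073 without 48 h and -0.073 without the prieurianin array at 48 h. The cause of these shifts was not tested. Leaving out a time leaves 2 arrays per arm. Probes near the floor and the saturated Acta2 probe limit the size of a fold.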

Other observations

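Some genes called higher are on none of the lists. The following were picked from the called genes after their values were seen, for what they are known to do, and genes of like function that were not called were not counted, so they show nothing about actin genes as a group. They are Actg1, cytoplasmic gamma-actin (1.28 ± 0.16), Palld, palladin, an organiser of stress fibres (1.29 ± 0.19), Dstn, destrin, which severs filaments (1.09 ± 0.12), Actr3 (0.93 ± 0.14) and Arpc5 (0.79 ± 0.12), subunits of the Arp2/3 complex, and Wdr1, which speeds filament disassembly (0.83 ± 0.13). Lims1 (0.76 ± 0.13), Lims2 (1.07 ± 0.17) and Rsu1 (0.92 ± 0.11), partners of integrin-linked kinase, were called as well. For Actg1 the untreated arrays (13.05, 12.26 and 12.32) were lower than the DMSO arrays (14.14, 14.00 and 13.83), and prieurianin arrays were at 14.57, 14.36 and 14.71.

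Some genes had 1 array far from the other 8: in 9 of 12792 genes the lowest array, and in 1 the highest, lay over 4 on the log2 scale from the nearest other, and 0 of these genes were called. Ppp6r3 read 6.14 with prieurianin at 48 h and 13.4 to 14.2 elsewhere, Atp6v0d1 6.44 with prieurianin at 24 h and 13.1 to 14.0 elsewhere, and Akirin2 4.82 in untreated cells at 48 h and 11.6 to 12.3 elsewhere.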
